A study of Mus musculus with 6 samples.

Results

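The enzymes of the pentose phosphate pathway were followed in mouse glial cells with and without mutant histone H3.3. The pathway was taken as a list of genes, named by their place in the pathway and proposed with earlier results of these data known, of which 9 are reported: *H6pd*, *Pgls*, *Pgd*, *Rpia*, *Rpe*, *Tkt*, *Taldo1*, *Prps1* and *Prps2*. They were 9 of the 22911 genes that had a named probe on the array, and 14 probes read them. All 9 were among the 14898 genes tested, and for each of the 9 the signal stood well above background on all 5 arrays for which this flag was at hand. The cells were OS3, an immortalized glial cell line made with SV40 from the brain of newborn C3H/HeN mice (strain C3H and male in the labels). WT cells were OS3 cells that carried the empty pcDNA3.1 plasmid (OS3-vector), and IG27 cells were OS3 cells that carried the same plasmid with H3.3-K27M (OS3-H3F3A_K27M). Both were selected with drug and kept for 2 days in the same medium, which held serum, insulin and added glucose. RNA from 3 dishes of each group was hybridized to 1 single-color Agilent array per dish, with all 6 arrays on 1 slide. Several clones were picked from the transfected cells, and which clone each dish held is not given in the sources used here. Since the samples were dishes of a line, p-values measured the spread between dishes only and not between clones.

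The pathway branches from glycolysis at glucose 6-phosphate. Its oxidative branch removes a carbon from that sugar and yields NADPH, which feeds lipid synthesis and the reduction of glutathione, and its nonoxidative branch passes carbon between pentoses and the sugars of glycolysis in either direction. The pentose that it makes is activated to phosphoribosyl pyrophosphate (PRPP), the sugar donor for purines, pyrimidines and NAD, and glial cells are known for drawing on this pathway against oxidative stress.

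Relative to WT cells, 5 of the 9 genes were lower in IG27 cells (*H6pd*, *Pgls*, *Tkt*, *Prps1* and *Prps2*), 1 was higher (*Rpe*), and 3 did not pass the test (*Pgd*, *Rpia* and *Taldo1*; limma, two-sided, adjusted p over all genes under 0.05). These counts have to be read against a background in which 70.5% of all genes tested were called, 40% lower and 30.5% higher. The median log2 fold change of the 9 genes was -0.29, against -0.07 over all 14898 genes tested. In the 6 genes called, the 3 WT and the 3 IG27 values did not overlap, which was so for 75.7% of all genes tested. With arrays scaled to their 75th percentile, none of the 9 genes moved by 2-fold or more, a size that 11.5% of genes reached upward and 11.7% downward. The largest changes, those of *Tkt* and *Pgls*, were exceeded in size by 26.3% and 26.5% of all genes tested. When each array was scaled to its median instead of its 75th percentile, the median of all genes shifted by -0.24. The calls went from 4546 higher and 5955 lower to 3026 higher and 7956 lower (from 43.3% to 27.6% of calls higher). With this choice 8 of the 9 genes were called lower, *Tkt* (-1.16) and *Pgls* (-1.15) by more than 2-fold, while *Rpe* stood at -0.01. Changes relative to the median of all genes, which that choice leaves as they are, were -0.85 for *Tkt*, -0.84 for *Pgls*, -0.60 for *H6pd*, -0.42 for *Prps2*, -0.22 for *Prps1* and 0.30 for *Rpe*, and they were 0.00673 for *Pgd*, -0.0150 for *Rpia* and -0.00529 for *Taldo1*.

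**Figure D1:**
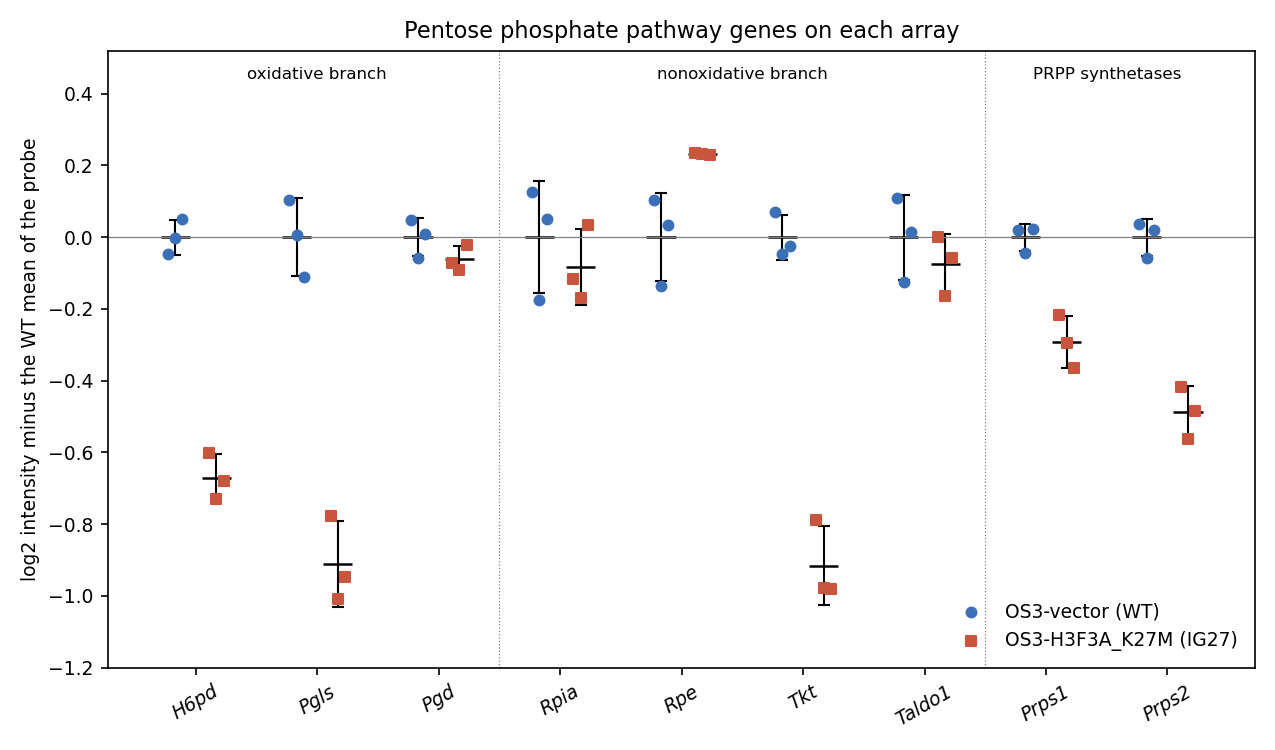
Each point is 1 array, with the log2 intensity of the brightest probe of each of the 9 genes minus the WT mean of that probe on the vertical axis; circles are the 3 OS3-vector (WT) dishes, squares the 3 OS3-H3F3A_K27M (IG27) dishes and short lines with bars the group means ± SD. The IG27 points of *Tkt* and *Pgls* lie about 0.91 to 0.92 below WT on average, those of *Rpe* lie above WT, and those of *Pgd*, *Rpia* and *Taldo1* overlap with WT.

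Promoters of 3 of the genes are given here as the DNA upstream of the differences, namely those with the largest falls (*Tkt* and *Pgls*) and the gene that rose (*Rpe*). Each runs 5' to 3' on the strand of its gene, from 250 bases before to 50 bases after the annotated start, from RefSeq on GRCm38.p6: *Tkt* at chr14:30548881-30549180 (plus strand), *Pgls* at chr8:71591934-71592233 (plus strand) and *Rpe* at chr1:66700581-66700880 (plus strand). Capitals mark, on either strand, the GC box GGGCGG, the CCAAT box CCAAT, the E-box CACGTG and the antioxidant response element core TGACNNNGC.
Tkt: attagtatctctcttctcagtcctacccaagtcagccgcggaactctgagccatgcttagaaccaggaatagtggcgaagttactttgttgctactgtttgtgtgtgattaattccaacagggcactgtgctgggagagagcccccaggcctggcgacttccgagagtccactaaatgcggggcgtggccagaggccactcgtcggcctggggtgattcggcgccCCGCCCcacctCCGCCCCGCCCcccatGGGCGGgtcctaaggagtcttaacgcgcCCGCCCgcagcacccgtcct
Pgls: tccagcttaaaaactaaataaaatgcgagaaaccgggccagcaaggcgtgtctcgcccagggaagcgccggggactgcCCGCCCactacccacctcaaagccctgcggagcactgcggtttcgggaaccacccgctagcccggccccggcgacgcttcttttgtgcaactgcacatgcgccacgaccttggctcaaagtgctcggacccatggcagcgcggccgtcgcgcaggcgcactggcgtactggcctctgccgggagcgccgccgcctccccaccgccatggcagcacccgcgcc
Rpe: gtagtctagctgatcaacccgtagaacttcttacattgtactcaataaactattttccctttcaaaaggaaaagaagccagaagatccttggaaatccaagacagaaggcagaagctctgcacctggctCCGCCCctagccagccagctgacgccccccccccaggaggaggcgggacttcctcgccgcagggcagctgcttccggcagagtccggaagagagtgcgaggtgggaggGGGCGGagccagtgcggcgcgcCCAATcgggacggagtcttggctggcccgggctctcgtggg

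The *Tkt* window held 5 GGGCGG matches, a pair of which share 1 base and print as 1 run, against 2 in *Rpe* and 1 in *Pgls*. Over the whole list, all 9 genes matched a promoter in the table (10 windows, since *Pgd* has 2), and 7 of the 10 windows held GGGCGG, against 35.7% of all 32851 mouse promoters of this length. The share of G and C in the windows ran from 39.3% (*H6pd*) to 67.3% (*Pgls*) and was mostly above the median of all promoters, 52.7%. Its part in the share of windows with GGGCGG was not tested. CCAAT was in 5 of the 10 windows, against 37.4% of all. The antioxidant element core was in 1 of the *Pgd* windows (chr4:149166033-149166332), against 12.4% of all, and no window held CACGTG, which 7.15% of all did. This *Pgd* window and the windows of *H6pd*, *Prps2* and *Rpe* belong to annotated starts inside the genes. The other *Pgd* window, at the outer end of the gene, did not hold the antioxidant element core. A match describes letters in a window and does not show that a factor binds there.

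In the oxidative branch, *Pgls* and *H6pd* were lower in IG27 cells and *Pgd* did not pass the test. Values are given here as log2 of the processed intensity minus the 75th percentile of the array, so that 0 is that percentile, and levels of different probes cannot be set against each other.

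*Pgls* encodes 6-phosphogluconolactonase, which opens the lactone formed in the oxidative branch. Its brightest probe read 6.23, 6.14 and 6.02 in WT cells and 5.35, 5.12 and 5.18 in IG27 cells. The groups were far apart, and the fall was 0.91 on the log2 scale (log2 fold change -0.91 ± 0.09, SE, adjusted p = 1.44e-04), to 53.2% of WT. A second probe also fell and had a smaller spread between dishes, at 3.50, 3.51 and 3.49 in WT cells against 2.54, 2.50 and 2.56 in IG27 cells, which is -0.96 as a log2 fold change.

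*Pgd*, the 6-phosphogluconate dehydrogenase that makes the second NADPH and releases the pentose, read 3.88, 3.77 and 3.84 in WT cells and 3.76, 3.74 and 3.81 in IG27 cells. The values of both groups overlapped. The log2 fold change was -0.06 (95% confidence interval -0.19 to 0.06, adjusted p = 0.316), whereas scaling to the array medians gave -0.30 and quantile normalization 0.10. Within each array, the *Pgls* value moved against that of *Pgd* by -0.85 (IG27 minus WT), with no overlap between the groups (exact permutation test, two-sided, p = 0.1, the smallest that 3 against 3 allows). This and the other ratios within arrays were chosen after their values had been seen, so their lack of overlap and their p-values are descriptive only.

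*H6pd* encodes a separate enzyme inside the endoplasmic reticulum, which carries out the first steps of the pathway on the luminal pool of glucose 6-phosphate and keeps NADPH there. It read 2.47, 2.52 and 2.57 in WT cells and 1.92, 1.79 and 1.84 in IG27 cells. All IG27 dishes were again below all WT dishes. The log2 fold change was -0.67 ± 0.06 (SE), adjusted p = 8.15e-05, a level 1.59-fold lower.

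The nonoxidative branch was uneven, with 1 gene lower, 1 higher and 2 that did not pass the test. *Tkt* encodes transketolase, the thiamine-dependent enzyme that moves ketol units between sugars. It read 5.19, 5.08 and 5.10 in WT cells and 4.33, 4.15 and 4.14 in IG27 cells. The WT dishes lay close together and the IG27 dishes were all well below them. The log2 fold change was -0.92 ± 0.07 (SE), adjusted p = 6.18e-05, to 53.0% of WT.

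*Taldo1*, which encodes transaldolase, the partner of transketolase in the same set of reactions, read 6.86, 6.63 and 6.76 in WT cells and 6.75, 6.59 and 6.69 in IG27 cells. The groups overlapped, and the log2 fold change was -0.07 (95% confidence interval -0.27 to 0.12, adjusted p = 0.435). Its other probe gave 0.03 (adjusted p = 0.613 over all probes). The ratio of *Tkt* to *Taldo1* within arrays shifted by -0.84. Measured from the mean ratio in WT cells, it was -0.79, -0.81 and -0.92 in IG27 cells and -0.04, 0.08 and -0.04 in WT cells, with no overlap (exact permutation test, two-sided, p = 0.1, the smallest possible). Since this pair was chosen after its values had been seen, the ratio is descriptive, and no cause of the shift was tested.

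The isomerase and the epimerase interconvert the pentose phosphates. *Rpia*, the isomerase that yields ribose 5-phosphate, had the widest spread of the 9 genes between WT dishes, at -0.31, -0.62 and -0.39 in WT cells and -0.56, -0.61 and -0.41 in IG27 cells. The groups overlapped, and the log2 fold change of -0.08 had a 95% confidence interval from -0.32 to 0.16 (adjusted p = 0.473), wider than that of *Pgd*. *Rpe*, the epimerase that yields xylulose 5-phosphate, read 1.34, 1.11 and 1.28 in WT cells and 1.48, 1.47 and 1.47 in IG27 cells. The IG27 dishes were all above the WT dishes, although the highest WT dish came near. The log2 fold change was 0.23 ± 0.07 (SE, adjusted p = 0.026), which is 117% of WT, and it turned to -0.01 with arrays scaled to their medians. The call was also lost without any 1 of the IG27 dishes (adjusted p from 0.0635 to 0.0678). The other probes of *Rpe* rose more and with wider gaps: 1 read -2.38, -2.38 and -2.19 in WT cells and -1.80, -1.77 and -1.91 in IG27 cells (log2 fold change 0.49, adjusted p over all probes = 0.00131), and the other rose by 0.54 (adjusted p over all probes = 4.52e-04). With the mean of the 3 probes in place of the brightest, *Rpe* was 0.42 higher in IG27 cells.

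Both PRPP synthetase genes were lower. *Prps1* and *Prps2* lie on the X chromosome and encode the isoforms of the enzyme that turns ribose 5-phosphate into PRPP, the step that leads out of the pathway into nucleotide synthesis. *Prps2* read 2.66, 2.56 and 2.64 in WT cells and 2.20, 2.06 and 2.13 in IG27 cells. The IG27 dishes were all below WT, at 71.3% of the WT level (log2 fold change -0.49 ± 0.06, SE, adjusted p = 4.39e-04). Its other probe fell further, by 0.64 on the log2 scale. *Prps1* read 4.66, 4.60 and 4.67 in WT cells and 4.43, 4.35 and 4.28 in IG27 cells. The groups again did not overlap, and the difference was smaller (log2 fold change -0.29 ± 0.06, SE, adjusted p = 0.00386), at 81.7% of WT. Within arrays *Prps2* shifted by -0.20 relative to *Prps1*, with no overlap (exact permutation test, two-sided, p = 0.1, the smallest possible).

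Across the 14 probes, 7 were lower, 3 were higher and 4 were not called, against 69.7% of 21895 probes called in all. Of the 9 genes, 5 had 1 probe, 3 had 2 and *Rpe* had 3, and within no gene did probes of opposite sign both pass the test. Within the groups the SD of the brightest probes ran from 0.04 to 0.16 in WT cells and from 0.00255 to 0.12 in IG27 cells, against a median of 0.08 over all genes in either group. WT replicate 2 was the lowest WT dish for 7 of the 9 genes and WT replicate 1 the highest for 7. In IG27 cells, replicate 1 was the highest for 7 of the 9 genes and replicate 2 the lowest for 6. WT replicates 1 and 3 occupied a row of the slide, and WT replicate 2 shared the other row with all IG27 arrays. With the row as a block, which compares the IG27 dishes with WT replicate 2 alone, the same 6 genes were called in the same directions, *Rpe* at 0.37, *Tkt* at -0.87 and *Pgls* at -0.92.

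**Figure D2:**
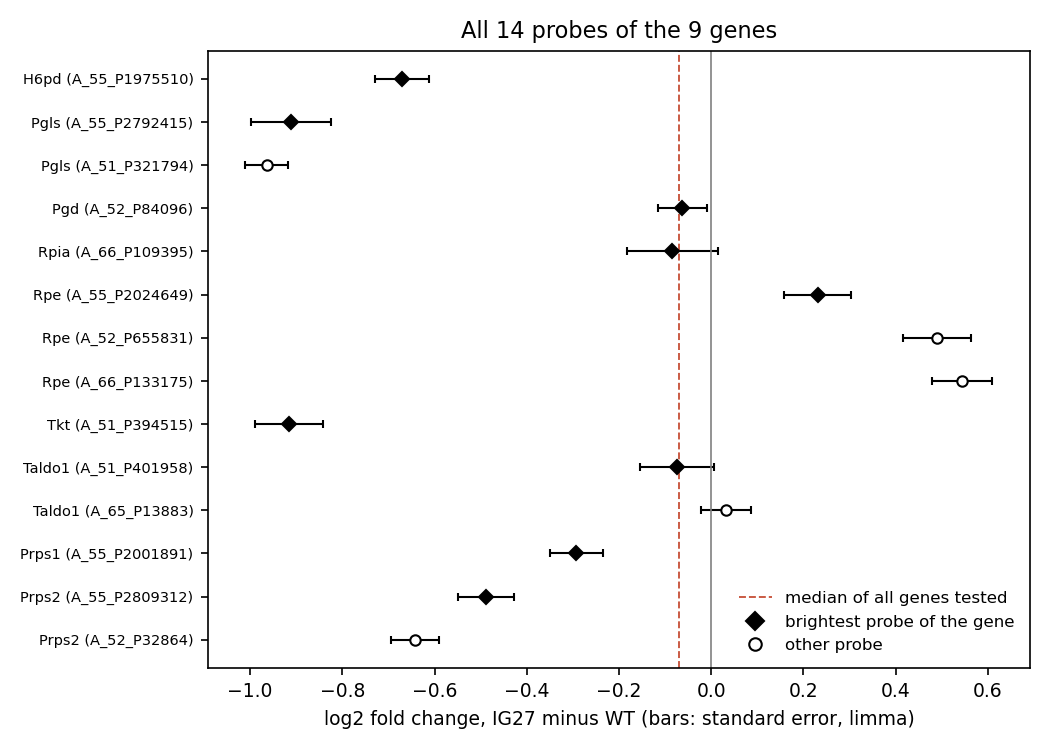
Log2 fold change (IG27 minus WT, horizontal axis) of all 14 probes of the 9 genes with its standard error from limma; diamonds are the brightest probe of a gene, open circles its other probes, and the dashed line is the median of all genes tested, -0.07. The probes of *Pgls*, *Prps2* and *Rpe* share a direction within each gene, and the probes of *Taldo1* lie on both sides of 0.

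Whole chromosomes differed between the groups, and the genes are given here beside the other genes of their chromosomes. *Prps1* and *Prps2* lie on the X chromosome, where the median log2 fold change over 513 genes tested was -0.59 and 63.4% of genes were lower. Both genes fell by less than that median, so that 62.6% and 55.9% of the genes of the X chromosome had a lower log2 fold change than *Prps1* and *Prps2*, respectively. When the median of its chromosome was subtracted from each gene on each array, *Prps1* was at 0.27 (adjusted p = 0.00454) and *Prps2* at 0.07 (adjusted p = 0.194). Both were thus lower in IG27 cells as measured, whereas relative to the rest of the X chromosome *Prps1* was higher and *Prps2* did not pass the test.

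*Pgls* lies on chromosome 8, whose 769 genes tested had a median of -0.67, with 74.3% lower. Its fall exceeded that median by 0.24 on the log2 scale (difference -0.24). *H6pd* and *Pgd* lie on chromosome 4, where the shift was upward, with a median of 0.33 over 968 genes, 58.4% higher and 14.3% lower. After centering on the chromosome *H6pd* was at -1.16 (adjusted p = 1.17e-05), and 7.44% of the genes of the chromosome had a lower value. *Pgd*, which did not pass the test against WT, was at -0.55 after this centering (adjusted p = 2.27e-04). In the annotation *H6pd* and *Pgd* are near each other, with 11 tested genes between them, of which 8 were higher and 3 were lower in IG27 cells, with a median of 0.46 and a range from -0.71 to 2.99.

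*Tkt* lies on chromosome 14 (median -0.28) and was 0.64 below it (difference -0.64), and *Rpe* lies on chromosome 1 (median -0.01) and was 0.24 above it. *Rpia* on chromosome 6 and *Taldo1* on chromosome 7 lay at 0.13 and -0.21 from their chromosome medians. These distances, like those of *Pgls*, *Tkt* and *Rpe*, are log2 fold changes minus the median log2 fold change of the chromosome. Centered values have the median subtracted on each array instead, and they differ from the distances. After centering *Taldo1* was called at -0.39 (adjusted p = 0.00593), and *Pgls*, *Tkt* and *Rpe* were at -0.28, -0.74 and 0.20. With chromosomes centered, 7 of the 9 genes were called, 2 higher and 5 lower. Beyond this centering, the part of the chromosome shifts in the change of any of these genes was not tested.

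**Figure D3:**
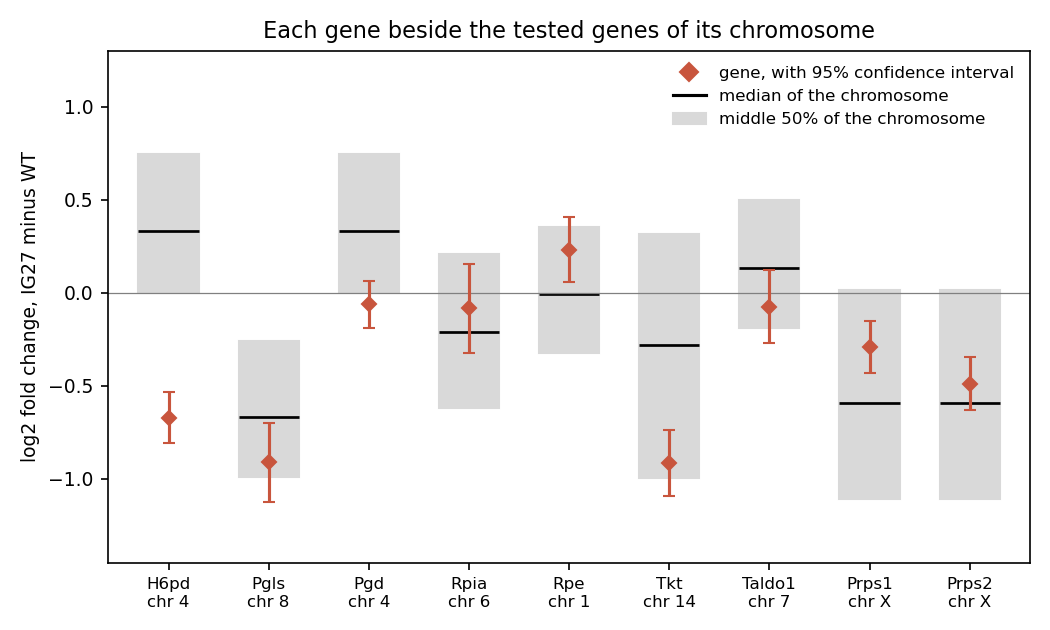
Log2 fold change of each gene (diamond, IG27 minus WT, with its 95% confidence interval from limma) beside the median (black line) and middle 50% (gray box) of all tested genes on its chromosome. *Prps1* and *Prps2* lie above the X chromosome median of -0.59, and *H6pd* lies below the gray box of chromosome 4.

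The enzymes and regulators around the pathway were read from 7 lists of 64 genes, 58 of them tested. Of these, 20 were higher, 21 were lower and 17 did not pass the test, beside 70.5% of all genes called. With arrays scaled to their medians 15 were higher and 31 lower, and with chromosomes centered 24 were higher and 19 lower. Of the enzymes that make glucose 6-phosphate or take it into glycolysis, 4 of 5 were higher and none was lower, with a median of 0.66. These counts, beside 30.5% higher and 40% lower of all genes, were the same under the other scalings. *Hk1*, the main hexokinase of brain, rose by 1.45 (from 3.66 ± 0.03 to 5.10 ± 0.10, mean ± SD, n = 3 each, limma adjusted p = 4.94e-06). *Hk2*, the insulin-responsive hexokinase, rose by 0.65 (adjusted p = 3.12e-04), and *Gpi1*, the isomerase that takes glucose 6-phosphate into glycolysis, rose by 0.66 (adjusted p = 4.51e-05). *Hkdc1*, a hexokinase-like gene, was also called higher. Its probe was well above background on all complete IG27 arrays and on 1 of 3 WT arrays. It thus entered the test only through the group in which it was higher, so its call adds no support to the counts of this list. *Hk3* did not pass the test (log2 fold change 0.43, adjusted p = 0.189).

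The partners of *H6pd* in the endoplasmic reticulum went different ways. The value of *Slc37a4*, the transporter that brings glucose 6-phosphate into the lumen, was 0.02 (adjusted p = 0.736; with arrays scaled to their medians -0.22, adjusted p = 0.0289, and after centering on its chromosome 0.57), and *G6pc3*, a phosphatase that removes the phosphate there, was lower by 0.47 (log2 fold change -0.47, adjusted p = 0.00131). *Hsd11b1*, the steroid reductase that consumes the NADPH made by H6PD, was 13.3-fold higher, at -4.59, -5.07 and -5.09 in WT cells and -1.23, -1.13 and -1.18 in IG27 cells (adjusted p = 2.52e-06). Its WT signals were flagged well above background but were low, at 44.4, 31.0 and 29.0 on the linear scale. The median signals of these arrays were 79.3, 79.3 and 70.0, so the size of the fold is uncertain. Transcripts of the producer and of the consumer of luminal NADPH were thus called in opposite directions.

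Among 9 tested genes of other NADPH sources and of the kinases that make NADP, 3 were higher and 4 were lower. Over all genes tested, 30.5% were higher and 40% lower. The median of the 9 was 0.00. The mitochondrial isocitrate dehydrogenase *Idh2* rose by 0.79 (adjusted p = 7.72e-05). The mitochondrial malic enzyme *Me3* fell by 1.39 on the log2 scale (adjusted p = 7.01e-05), and the folate enzymes *Aldh1l1* and *Aldh1l2* fell by 1.72 (adjusted p = 0.00485) and by 0.60 (adjusted p = 8.57e-04). The IG27 dishes of *Aldh1l1* lay far apart, at -2.14, -3.25 and -3.54. A second probe of *Aldh1l2* was at -0.42, with overlapping groups, and did not pass the test (adjusted p over all probes = 0.221). With arrays scaled to their medians, 1 of the 9 was higher and 6 were lower.

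Of the enzymes that use PRPP or act in the nucleotide and NAD pathways behind it, 18 were tested. Of these, 5 were higher and 6 lower, beside 30.5% and 40% of all genes, and 7 did not pass the test. Their median was -0.00. *Aprt*, which joins PRPP to adenine in purine salvage, fell by 1.51 on the log2 scale (adjusted p = 3.46e-06). The isoforms of IMP dehydrogenase, which commits purines to guanine nucleotides, were called in opposite directions, *Impdh1* at 1.19 (adjusted p = 1.14e-05) and *Impdh2* at -1.16 (adjusted p = 4.36e-06). *Dhodh*, the mitochondrial step of pyrimidine synthesis, fell by 0.86 (adjusted p = 2.95e-05). *Aprt* and *Dhodh* lie on chromosome 8 (median -0.67) and *Impdh2* on chromosome 9 (median -0.64), and after centering on these chromosomes they were at -0.88, -0.23 and -0.61. Quantile normalization gave 8 higher and 6 lower in this group of enzymes, and scaling to the array medians 3 higher and 9 lower.

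Among side enzymes and paralogs, 3 of 9 tested were higher and 3 were lower, beside 30.5% and 40% of all genes, with a median of -0.04. Quantile normalization gave 3 higher and 1 lower here, and scaling to the array medians 2 higher and 5 lower. *Shpk*, the kinase that makes sedoheptulose 7-phosphate, a substrate of the nonoxidative branch, rose by 1.03 (adjusted p = 5.59e-06). The phosphoglucomutase-family genes *Pgm1* and *Pgm2*, as the annotation table names them, were higher by 0.80 (adjusted p = 1.28e-05) and 0.39 (adjusted p = 0.00103), and *Pgm2* did not pass the test with arrays scaled to their medians. *Prpsap2*, a protein that binds the PRPP synthetases, was lower (log2 fold change -0.51, adjusted p = 2.83e-04). *Prps1l3*, a near-identical copy of *Prps1*, was also tested, with its brightest probe at -0.15 (adjusted p = 0.0375). Its other probe was at 0.07, with overlapping groups, and did not pass the test (adjusted p over all probes = 0.655). Whether these probes also read the *Prps1* transcript was not tested. *Tktl1*, *Tktl2* and *Prps1l1* were not tested, as in neither group did all complete arrays have a probe of theirs flagged well above background.

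The regulators known to act on the pathway did not move as 1 group. NRF2, the factor that drives oxidative branch genes and transketolase under oxidative stress, and the genes of its axis were called lower in 6 of 9 tested and higher in none, with a median of -0.55, beside 40% of all genes called lower and 30.5% higher. No gene of this list was called higher with quantile normalization or with arrays scaled to their medians, whereas after centering on chromosome medians 2 were higher and 4 were lower, with a median of -0.14. *Nfe2l2*, which encodes NRF2 itself, fell by 1.29 on the log2 scale (adjusted p = 7.17e-06), and *Keap1*, its inhibitor, fell by 1.16 (adjusted p = 9.26e-05). Its targets *Srxn1* and *Gsr*, which reduce peroxiredoxins and glutathione, fell by 0.62 (adjusted p = 4.9e-04) and 0.59 (adjusted p = 3.45e-04). After that centering *Nfe2l2* (chromosome 2) and *Keap1* (chromosome 9) were at -0.81 and -0.61, *Srxn1* (chromosome 2) was at -0.14 and *Gsr* (chromosome 8) at 0.04, and the last pair did not pass the test. Also lower were *Bach1* (log2 fold change -0.55, adjusted p = 0.0204) and the target *Gclm* (-0.45, adjusted p = 2.91e-04). The 6 genes called lower thus included *Nfe2l2*, *Keap1* and *Bach1* as well as targets. Other targets did not pass the test, namely *Gclc* (-0.16, adjusted p = 0.0556), *Hmox1* (0.10, adjusted p = 0.544) and *Txnrd1* (-0.03, adjusted p = 0.600). *Nqo1*, a defining target, was not well above background in either group.

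Of the other regulators, 4 of 5 were higher and 1 was lower under each scaling, with a median of 0.86. Beside this, 30.5% of all genes tested were higher and 40% lower. *Myc* rose by 1.19 (adjusted p = 7.7e-06), *Hif1a* by 0.88 (adjusted p = 9.76e-06), *Srebf1*, the lipogenic factor, by 0.86 (adjusted p = 1.61e-04) and *Trp53*, which encodes p53, by 0.75 (adjusted p = 6.19e-05). *Tigar*, a phosphatase that lowers the flow through glycolysis and so favors the pentose phosphate pathway, fell by 0.53 (adjusted p = 1.03e-04).

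**Figure D4:**
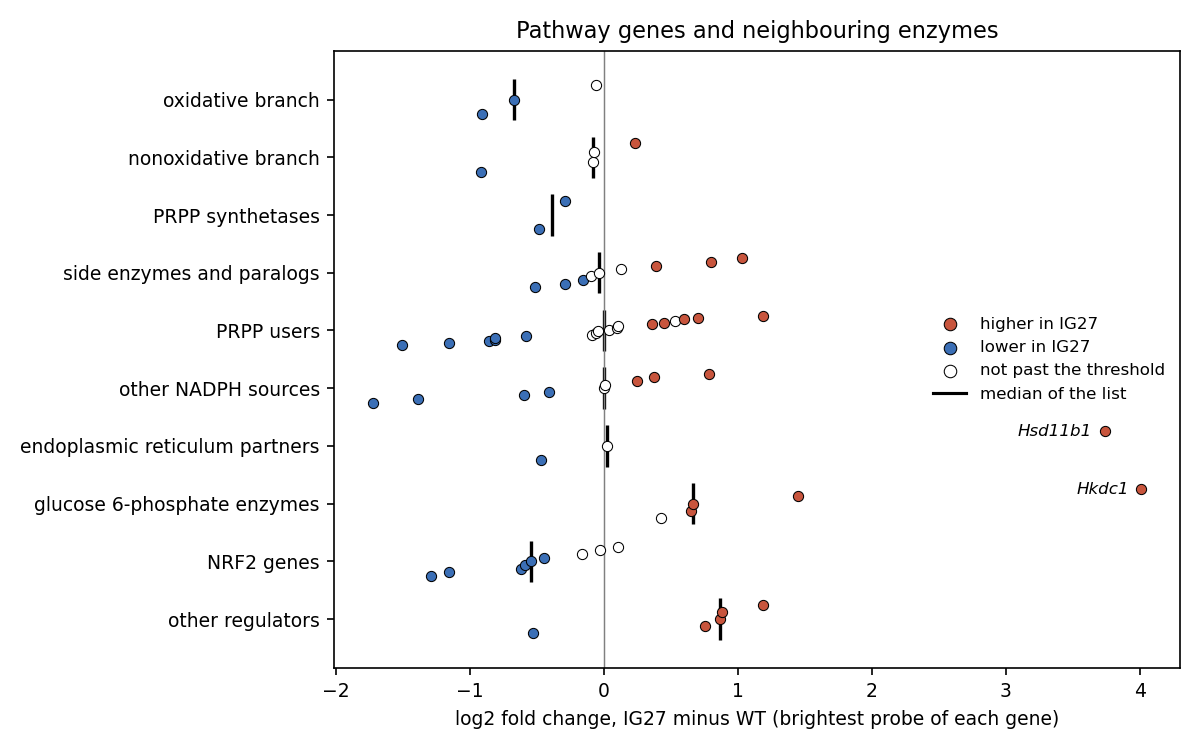
Log2 fold change (IG27 minus WT, brightest probe) of every tested gene of the pathway and of the 7 surrounding lists, 1 row per list; red fill marks genes called higher, blue fill genes called lower and white genes that did not pass the test, and the vertical stroke is the median of the list. The row of glucose 6-phosphate enzymes lies right of 0 with a median of 0.66, and the row of NRF2 genes lies mostly left of it with a median of -0.55.

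The labels were checked against marker genes. Of 11 glial markers, 9 were well above background in WT cells and 10 in IG27 cells, *Gfap*, *Sox10*, *Olig2* and *Vim* among them, with a summed log2 level of 8.35 to 8.42 in WT and 8.02 to 8.09 in IG27 cells. Single glial markers moved more than this sum: the mean of *S100b* was -1.48 in WT and 3.45 in IG27 cells, that of *Pdgfra* -1.75 and 0.61, *Slc1a3* and *Cspg4* were well above background in IG27 cells only and *Aqp4* in WT cells only. Of the markers of other cell types, *Rbfox3* (neurons), *Cdh5* (endothelium), *Ptprc* and *Cx3cr1* (leukocytes and microglia) were not well above background in either group. Other markers on each of these lists were. The summed level of 3 endothelial markers was -2.60 to -2.45 in WT and 1.37 to 1.41 in IG27 cells, in which *Kdr* went from not well above background (-7.97) to 1.31 while *Pecam1* was -2.58 and -2.84. That of 4 neuronal markers was 4.13 to 4.32 and 2.75 to 2.91, in which *Tubb3* was 3.78 and 1.15, *Snap25* 2.39 and 2.28, and *Syn1* -3.59 and -3.67. The sum of 4 microglial and leukocyte markers was 3.26 to 3.37 in WT and 3.50 to 3.57 in IG27 cells. In it, *Itgam* was well above background in both groups, at 3.31 and 3.52, and *Aif1* in IG27 cells only, at -4.09. The part of these values in the changes of the pathway was not tested. The probe of *H3f3a*, the gene whose mutant form the plasmid carries, read 6.84 ± 0.13 in WT and 6.58 ± 0.05 in IG27 cells (mean ± SD, n = 3 each, limma adjusted p = 0.0237), and since the files do not say whether it can read the plasmid's transcript, it does not check the labels.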

How the data were processed

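RNA of 6 dishes (3 WT, 3 IG27, grouped by the labels) was hybridized to 6 single-color Agilent arrays. The deposited values were intensities on a linear scale, the processed signal that the authors obtained with Feature Extraction (version 10.7.3.1 in the file headers, 9.1 in the labels); which corrections it includes is not given in the sources used here. In the deposited value table, which holds the same intensities, the columns of WT replicates 2 and 3 were exchanged relative to the scanner output (equal within a relative tolerance of 1e-04), and samples were taken as the scanner output labels them. The scanner output of IG27 replicate 2 was cut short. The table supplied this array, with the same value in all 255 probes of 1 spot that could be compared. Its background flags were therefore not at hand.

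Probes (56605 without controls) received gene names by RefSeq accession (annotation of GRCm38.p6), giving 22911 genes (32994 probes); the array design was made on mm9, and no coordinates of probes are given. Outlier spots, which numbered 107 to 210 on an array, were dropped, and no spot was saturated. Between 58.8% and 61.2% of probes were well above background on the 5 complete arrays. The number of arrays limits the precision. Values were log2 intensities minus the 75th percentile of each array. A gene entered the test if, in 1 group or both, all complete arrays showed a probe of it well above background, and its brightest probe (mean over all arrays) was used. The test was limma's moderated test (limma 3.58.1, R 4.3.3; two-sided, no covariate, Benjamini-Hochberg over all genes, threshold 0.05). The study's methods also name a moderated test, with no covariate stated. Probes were fitted separately for the values of single probes. The test was also run on simulated data of 14898 genes in the same design, with 50 genes changed at each size. It called 2, 20, 40 and 49 of the 50 at changes of 0.25, 0.5, 1 and 2 on the log2 scale. In the measured data 70.5% of genes were called, a far larger share than was changed in the simulated data. Recovery with such a share of changed genes was not tested.

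The genes of the pathway and the lists around them were chosen with earlier results of these data known. An item of these lists is not reported here. Named were the 9 pathway genes, the 4 called genes with the largest change of each list, and every gene of lists with 5 or fewer genes. Added after their values were seen were *Prps1l3*, *Tktl1*, *Tktl2*, *Prps1l1*, *Nqo1*, *Bach1*, *Gclm*, *Gclc*, *Hmox1* and *Txnrd1*. Of the lists, 2 genes are named here as in the table (*Adssl1* and *Adss*), and *Nnt* was not analysed here. Alternatives were quantile normalization, scaling to array medians, normexp (offset 50) on the processed signal, other filters, other summaries of probes, outlier spots kept, the table by column label, eBayes with trend, the replicate number or the slide row as a block, each array left out and centering on chromosome medians. Promoters came from RefSeq on GRCm38.p6.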

Additional observations from a re-analysis of the deposited data

How the results depend on the processing

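Over 20 alternatives, 5 to 8 of the 9 genes were called, 8946 to 10982 of all genes and 38 to 46 genes of the surrounding lists (41 as reported). Leaving out 1 array at a time gave 5 to 6, 9800 to 10145 and 38 to 40. *Tkt* (log2 fold change -1.16 to -0.74), *Pgls* (-1.15 to -0.28) and *H6pd* (-1.16 to -0.55) stayed lower and called in all 20. *Pgd* turned to 0.10 with quantile normalization, *Rpe* to -0.00837 with arrays scaled to their medians, and *Rpia* and *Taldo1* to 0.0916 and 0.0508 with the slide row as a block. Centering on chromosome medians turned *Rpia* to 0.18, *Prps1* to 0.27 and *Prps2* to 0.0736. These reversals follow from the construction of the median and chromosome settings, which move whole arrays or chromosomes. The same holds for the slide row setting, which compares the IG27 dishes with WT replicate 2 alone. That dish read -0.62 for *Rpia* and 6.63 for *Taldo1*, below the IG27 means of -0.52 and 6.68. For the quantile setting the cause was not tested. *Rpe* was not called in 5 settings of the same direction: without IG27 replicate 1 (0.23, adjusted p = 0.0636), 2 (0.23, adjusted p = 0.0678, the same fit as the complete arrays alone) or 3 (0.23, adjusted p = 0.0635), and without a filter on dim probes (0.23, adjusted p = 0.0618), where more genes were tested. Scaling to array medians added *Pgd* (-0.30), *Rpia* (-0.32) and *Taldo1* (-0.31) to the calls, all lower.

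The replicate numbers did not pair the samples: deviations from the group means of same-numbered arrays correlated at 0.01, 0.04 and 0.08, and not every array correlated best with its own number. With the number as a replicate block, 10309 genes, 6 of the 9 pathway genes and 40 list genes were called. The limits are those of 3 dishes a group on 1 slide, of background flags for 5 arrays only, and of single probes for 5 of the 9 genes.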
